A study of Mus musculus with 8 samples.

Results

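Interferon-stimulated genes are the genes whose transcription rises when a cell senses an interferon. The 33 genes described here were listed by name, with earlier results of these nerves known, and all 33 were found among the 53090 genes of the deposited tables. RNA came from sciatic nerves of 4 control and 4 *Nae1* cKO mice on postnatal day 7 (P7). *Nae1* cKO mice carried 2 floxed *Nae1* alleles (Nae1 f/f) and a Cre recombinase that is active in Schwann cells, while the other cells of the nerve keep *Nae1*. The controls, labelled WT, were littermates without Cre that carried 1 or 2 floxed alleles (Nae1 f/+ or f/f), and which of these each control nerve had is not given in the labels. *Nae1* encodes a subunit of the enzyme that activates NEDD8, a ubiquitin-like protein.

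Interferons reach the nucleus by a short route. Type I interferons bind the receptor of IFNAR1 and IFNAR2, and the kinases JAK1 and TYK2 then act on a factor that includes STAT2 and IRF9 and binds the interferon-stimulated response element (ISRE) upstream of its targets. Interferon gamma binds IFNGR1 and IFNGR2 and acts through the gamma-activated site (GAS). The proteins made in response sense foreign nucleic acid, block viral RNA, attack the vacuoles of intracellular microbes or tune the signal itself, and in peripheral nerve they can be made by Schwann cells, macrophages, fibroblasts and endothelium. In a whole nerve, a change in the number of cells of a type and a change in RNA per cell cannot be told apart.

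Of the 33 genes, 31 passed the filter on low counts. In *Nae1* cKO nerves 18 of these 31 (58.1%) were higher at an adjusted p under 0.05 (edgeR's quasi-likelihood test, adjusted over 17090 genes), beside 14.1% of all genes tested. A single gene, *Oas2* (3.23%), was lower, beside 12.3% of all genes. A rise of more than 2-fold was called for 3 members (9.68%), beside 4.25% of all genes. These were *Parp14*, *Gbp7* and *Gbp3*. The other 12 genes passed no threshold. The median log2 fold change was 0.67 over the 31 genes and 0.0066 over all genes tested, and 26 of the 31 were positive. In 17 members (54.8%) all 4 *Nae1* cKO nerves lay above all 4 control nerves in CPM (counts per 1000000 counts of a library after scaling), beside 14.9% of all genes. These 17 were *Irf7*, which passed no threshold, and 16 of the 18 genes called higher. *Ifih1* and *Isg15* were called higher with overlap between the groups. The filter kept genes by their counts, so the 2 genes left out, *Zbp1* and *Mx1*, are part of the list but of none of these shares.

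**Figure D1:**
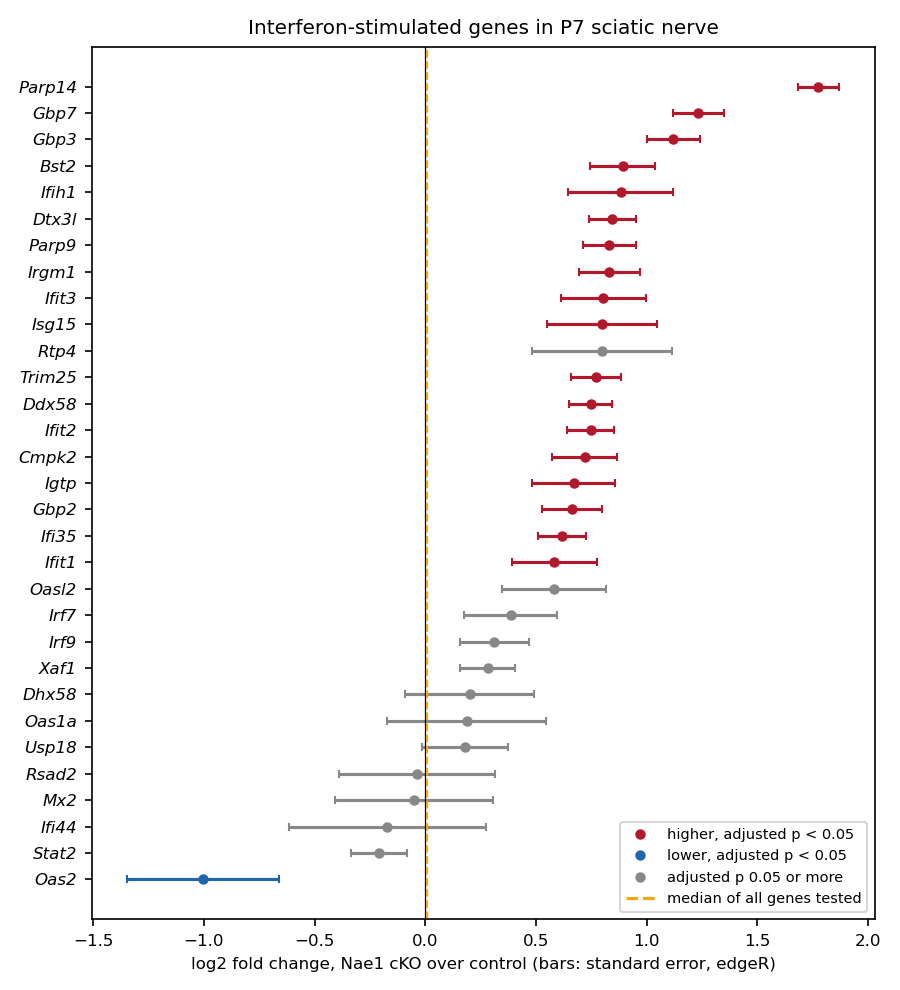
Log2 fold change (horizontal axis, *Nae1* cKO over control) of the 31 interferon-stimulated genes tested, ordered by size, with bars for the standard error from edgeR. Genes called higher run from 0.58 to 1.78, *Oas2* at −1.0 is the gene called lower, and the dashed line marks the median of all genes tested.

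The nerves bear names of a letter and a number, and values are given below in the order K1, L3, L4, L9 for control nerves and K2, L1, L5, L8 for *Nae1* cKO nerves. *Nae1* itself (ENSMUSG00000031878.18, chr8:104511028-104534637) was at 89.8, 81.3, 77.7 and 82.7 CPM in control nerves and at 57.1, 57.2, 48.9 and 43.8 CPM in *Nae1* cKO nerves (log2 fold change −0.68, SE 0.0971, adjusted p = 2.77e-04, edgeR), without overlap. Libraries held 12962798 to 14766770 expected counts. The *Nae1* cKO nerve K2 stood apart, with a chi-square per gene of 42.2 to 56.6 against the other nerves of its group, where those 3 differed by 4.08 to 9.71 among themselves. Control nerves differed from each other by 12.4 to 25.4. Without K2, 20 of 32 members tested were higher (15.7% of all genes), 17 of them among the 18. *Ifit1* then lost its call (adjusted p = 0.0599, edgeR) and *Irf9*, *Oasl2* and *Rtp4* gained one (adjusted p = 0.0205, 0.0134 and 0.00632, edgeR). What the letters K and L stand for is not given. Within the 6 nerves of the letter L, 18 of 31 members were higher (14% of all genes), 16 of them among the 18. *Igtp* (adjusted p = 0.0532, edgeR) and *Ifit1* (adjusted p = 0.133, edgeR) were the 2 without a call there.

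An ISRE core lay within 250 bases upstream of the start of 12 of the 24 members found in the RefSeq promoter table (GRCm38.p6). The core was searched as GAAANNGAAA on both strands, and 3.46% of the 27025 genes in that table hold it. A GAS core, searched as TTCNNNGAA on both strands, lay in 5 of the 24, beside 8.13% of all genes, and 11 of the 24 held neither. In 1 member window a match of each kind overlapped. Of the 16 genes called higher that the table holds, 9 had an ISRE core and 4 a GAS core, and of the 8 genes without a call 3 had an ISRE core and 1 a GAS core. The sequences around the ISRE cores of genes called higher are shown first, for 7 of the 9 and from the largest change down, since they carry the element that names the pathway. They are read 5′ to 3′ on the strand of the gene, with the core or its reverse complement in capitals.
*Gbp7* (chr3:142530258-142530317, plus strand): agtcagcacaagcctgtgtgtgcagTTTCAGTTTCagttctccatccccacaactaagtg
*Gbp3* (chr3:142559974-142560039, plus strand): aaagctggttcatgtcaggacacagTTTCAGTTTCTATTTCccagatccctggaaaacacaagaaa
*Bst2* (chr8:71537562-71537627, minus strand): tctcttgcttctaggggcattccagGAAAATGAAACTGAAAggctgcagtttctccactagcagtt
*Ifit3* (chr19:34583348-34583407, plus strand): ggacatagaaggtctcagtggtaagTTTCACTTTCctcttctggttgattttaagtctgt
*Isg15* (chr4:156200850-156200921, minus strand): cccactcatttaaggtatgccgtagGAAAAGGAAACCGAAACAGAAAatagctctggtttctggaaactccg
*Igtp* (chr11:58199497-58199555, plus strand): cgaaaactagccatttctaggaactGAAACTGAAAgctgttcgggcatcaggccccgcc
*Ifit1* (chr19:34640760-34640838, plus strand): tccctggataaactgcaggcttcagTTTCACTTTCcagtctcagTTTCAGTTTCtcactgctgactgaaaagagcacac

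The capitals hold 1 match in *Gbp7*, *Ifit3* and *Igtp*, 2 in *Gbp3*, *Bst2* and *Ifit1*, and 3 overlapping matches in *Isg15*. A second stretch with a match lies closer to the start of *Ifit3*, at chr19:34583382-34583441. All the stretches shown lie upstream of the annotated gene in GENCODE vM21, except that the last 14 bases of that of *Gbp3* fall within its annotated span. The stretches of the other 2 genes, *Irgm1* with 2 matches and *Gbp2* with 1, were not printed because 55 of 55 and 37 of 60 bases lie within the annotated gene. The same core lay upstream of 3 genes that passed no threshold, shown here so that they can be set beside the genes that did.
*Oas1a* (chr5:120907526-120907570, minus strand): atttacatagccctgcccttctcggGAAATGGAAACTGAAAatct
*Rsad2* (chr12:26456538-26456597, minus strand): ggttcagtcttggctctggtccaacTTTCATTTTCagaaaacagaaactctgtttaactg
*Stat2* (chr10:128270251-128270310, plus strand): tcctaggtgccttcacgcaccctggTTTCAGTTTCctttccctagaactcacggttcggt

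The core thus stood in the windows of genes with and without a call. A match is a description of the letters and not of binding, which these data do not measure.

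The genes were next read by role, beginning with those that carry the signal. None of the 4 signalling members, *Stat2*, *Irf9*, *Irf7* and *Usp18*, passed the threshold by edgeR, DESeq2 or limma-voom, and none had an unadjusted p under 0.05 by edgeR. *Stat2*, a subunit of the factor that binds the ISRE, was at 23.9, 25.6, 25 and 20.8 CPM in control nerves and at 15.8, 23.4, 21.9 and 21.3 CPM in *Nae1* cKO nerves (log2 fold change −0.21, SE 0.127, adjusted p = 0.257, edgeR). Only K2 lay below all control nerves. Its partner *Irf9* was at 12.6, 15.8, 16.6 and 12.2 CPM in control nerves and at 13, 19.4, 19.0 and 19.5 CPM in *Nae1* cKO nerves (log2 fold change 0.31, SE 0.155, adjusted p = 0.165, edgeR). Apart from K2, every *Nae1* cKO nerve was above every control nerve, and *Irf9* passed the threshold without K2, as given above. *Irf7*, the factor that amplifies type I interferon production, was low, at 1.59 to 1.97 CPM in control nerves and 2.01 to 3.0 CPM in *Nae1* cKO nerves (log2 fold change 0.39, SE 0.21, adjusted p = 0.205, edgeR). *Usp18*, which removes ISG15 from proteins and restrains the receptor, was at 3.08 to 4.56 CPM and 3.36 to 4.89 CPM (log2 fold change 0.18, adjusted p = 0.544, edgeR).

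Among the sensors of foreign nucleic acid and the ligase TRIM25, 3 of 4 tested genes rose. *Ddx58*, which encodes the RNA sensor RIG-I, was at 18.6, 18.4, 15.7 and 16.4 CPM in control nerves and at 26.6, 30.6, 30.0 and 28.7 CPM in *Nae1* cKO nerves (log2 fold change 0.75, SE 0.0969, adjusted p = 1.38e-04, edgeR). The groups did not overlap. *Trim25*, the E3 ubiquitin ligase that acts on RIG-I, was at 18.5, 22.7, 22.6 and 19.5 CPM against 29.9, 36.7, 35.4 and 40.4 CPM (log2 fold change 0.77, SE 0.114, adjusted p = 3.44e-04, edgeR), again without overlap. *Ifih1*, which encodes the RNA sensor MDA5, was at 5.99, 6.52, 10.3 and 9.69 CPM against 8.96, 16.7, 17.9 and 16.3 CPM (log2 fold change 0.88, SE 0.237, adjusted p = 0.0174, edgeR). Here K2 lay among the control nerves and the other *Nae1* cKO nerves above them. The call of *Ifih1* was lost without K1, L3 or L5 (adjusted p = 0.0524, 0.0502 and 0.0537, edgeR). *Dhx58*, a relative of both sensors without a signalling domain, was at 1.19 to 1.81 CPM and 1.22 to 2.51 CPM (log2 fold change 0.20, adjusted p = 0.665, edgeR), and its sign turned without L8 and on the TPM and FPKM scales. *Zbp1*, a sensor of Z-form nucleic acid, had 2 to 10 counts in control nerves and 3 to 11 in *Nae1* cKO nerves and was not tested.

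Proteins of the IFIT family bind foreign RNA and block its translation. All 3 IFIT genes in the list of 33 rose without overlap between the groups. Outside that list, *Ifit3b* was called higher with overlap (log2 fold change 1.01, adjusted p = 0.0369, edgeR). *Ifit1bl1* had a negative change and passed no threshold (log2 fold change −0.71, adjusted p = 0.0975, edgeR). *Ifit2* was at 38.1, 34.4, 33.8 and 41.3 CPM in control nerves and at 73.3, 57.1, 61.0 and 56.2 CPM in *Nae1* cKO nerves (log2 fold change 0.75, SE 0.105, adjusted p = 2.44e-04, edgeR), with K2 the highest. *Ifit3* was at 5.99, 4.42, 4.66 and 6.44 CPM against 12, 7.04, 9.86 and 8.64 CPM (log2 fold change 0.80, SE 0.192, adjusted p = 8.20e-03, edgeR). *Ifit1* was at 2.05, 2.32, 2.87 and 2.62 CPM against 3.81, 3.07, 4.35 and 3.55 CPM (log2 fold change 0.58, SE 0.192, adjusted p = 0.0419, edgeR). The call of *Ifit1* rested on every nerve but L1 and L4, since leaving out any of the other 6 gave an adjusted p of 0.0599 to 0.133 (edgeR). *Ifit1*, *Ifit2* and *Ifit3* lie together on chromosome 19, within chr19:34550694-34650009 on the plus strand of GRCm38. *Ifit3* had fractional expected counts in 8 of 8 nerves and *Ifit1* in 4, so reads shared with similar genes enter them and their values are uncertain to that extent, while *Ifit2* had none.

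The OAS and MX families are textbook interferon targets, and none of their 4 tested members rose by edgeR, DESeq2 or limma-voom, with *Oasl2* the only gene of them that had a positive change at an unadjusted p under 0.05 (0.0296, edgeR). *Oas2*, an oligoadenylate synthetase that switches on RNase L, was at 1.31, 2.17, 1.51 and 0.795 CPM in control nerves and at 0.597, 0.627, 0.952 and 0.697 CPM in *Nae1* cKO nerves (log2 fold change −1.0, SE 0.342, adjusted p = 0.0478, edgeR). These values stand for 10 to 30 counts in control nerves and 8 to 14 in *Nae1* cKO nerves, and L9 and L5 overlap. Leaving out any nerve but L9 ended this call (adjusted p 0.0546 to 0.153, edgeR). *Oasl2* was at 2.70, 3.55, 4.16 and 2.46 CPM against 3.06, 5.23, 5.23 and 5.78 CPM (log2 fold change 0.58, SE 0.236, adjusted p = 0.0912, edgeR), with K2 among the control nerves. *Oas1a* was at 0.652 to 1.29 CPM and 0.522 to 1.6 CPM (log2 fold change 0.19, adjusted p = 0.748, edgeR). *Mx2*, a dynamin-like GTPase, was at 0.646 to 1.52 CPM and 0.697 to 1.22 CPM (log2 fold change −0.05, adjusted p = 0.936, edgeR). *Mx1* had 7 to 15 counts in control nerves and 5 to 10 in *Nae1* cKO nerves and was not tested. The sign of *Oas1a* turned without L1, and that of *Mx2* in 9 of the alternatives tried.

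**Figure D2:**
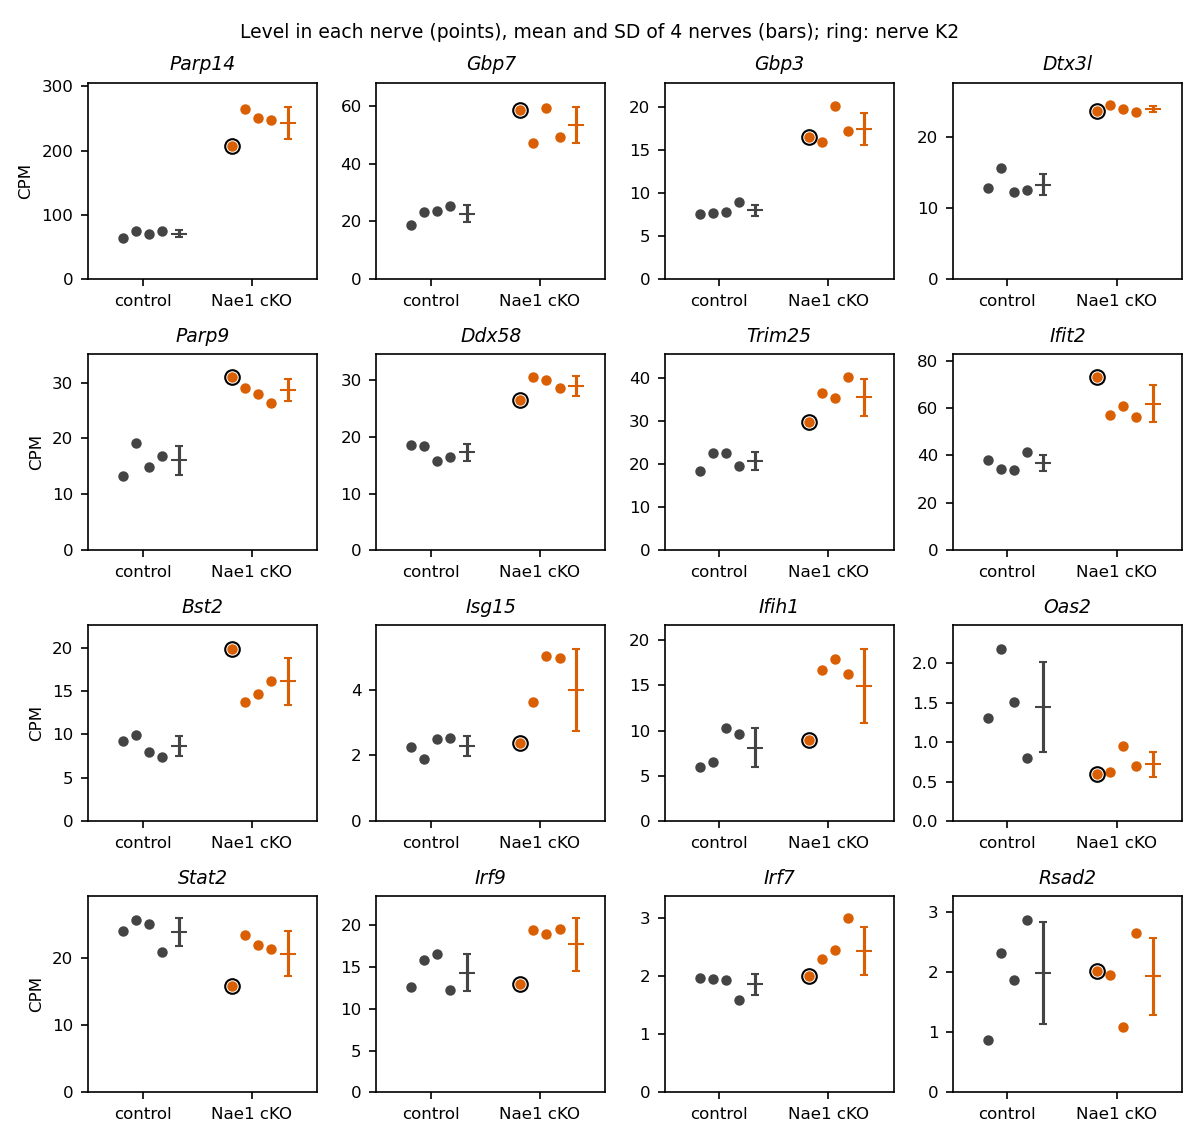
Level of 16 interferon-stimulated genes in CPM (vertical axes start at 0 and differ in scale) in each of 4 control and 4 *Nae1* cKO nerves, with the mean and SD beside the points and a ring around nerve K2. In the 9 panels from *Parp14* to *Bst2* the groups do not overlap, while in *Isg15*, *Ifih1* and *Irf9* the ringed nerve lies among the control nerves.

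GTPases of the guanylate-binding and immunity-related families act on the vacuoles of intracellular microbes and are classic targets of interferon gamma. All 5 of them in the list of 33 rose without overlap, but relatives outside it, named after their values were seen, were mixed. *Gbp6* and *Irgm2* were called higher (log2 fold change 0.82 and 0.74, adjusted p = 0.0144 and 0.0204, edgeR). *Gbp4* (−0.61), *Gbp5* (0.39), *Gbp9* (−0.09), *Ifi47* (0.07) and *Tgtp2* (0.0012) passed no threshold. *Gbp7* (ENSMUSG00000040253.15) was at 18.8, 23.3, 23.7 and 25.3 CPM in control nerves and at 58.6, 47.3, 59.4 and 49.3 CPM in *Nae1* cKO nerves (log2 fold change 1.23, SE 0.114, adjusted p = 1.08e-05, edgeR). *Gbp3* (ENSMUSG00000028268.14) was at 7.6, 7.67, 7.82 and 8.98 CPM against 16.5, 15.9, 20.1 and 17.2 CPM (log2 fold change 1.12, SE 0.121, adjusted p = 3.43e-05, edgeR). Even the highest control nerve of either gene stayed well below the lowest *Nae1* cKO nerve. *Gbp2* was at 6.94, 7.31, 7.03 and 5.48 CPM against 11, 9.82, 11.4 and 10.2 CPM (log2 fold change 0.66, SE 0.134, adjusted p = 3.06e-03, edgeR). *Irgm1*, a regulator of the other immunity-related GTPases, was at 5.55, 6.52, 6.10 and 6.04 CPM against 9.78, 11.6, 12.3 and 9.34 CPM (log2 fold change 0.83, SE 0.138, adjusted p = 8.15e-04, edgeR). *Igtp*, another of its family, was at 4.38, 5.21, 3.73 and 3.26 CPM against 7.76, 5.71, 7.21 and 5.78 CPM (log2 fold change 0.67, SE 0.186, adjusted p = 0.0184, edgeR), the smallest gap of the 5. Its call was lost without L4, L5 or L9 (adjusted p = 0.0556, 0.0562 and 0.0516, edgeR). The 3 *Gbp* genes of the list of 33 lie within chr3:142530342-142638008. Expected counts were fractional in 7 nerves for *Gbp7*, in 7 for *Igtp* and in 3 for *Gbp3*, and *Igtp* also overlaps *Irgm2*, so some of their reads were shared with similar genes.

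The 3 genes of the next group lie near each other on chromosome 16, and all rose without overlap. *Parp14* (ENSMUSG00000034422.14), a mono-ADP-ribosyltransferase, was at 63.5, 74.9, 70.7 and 74.2 CPM in control nerves and at 207, 265, 251 and 247 CPM in *Nae1* cKO nerves (log2 fold change 1.78, SE 0.0928, adjusted p = 1.63e-07, edgeR). This was the largest change of the list, 3.42-fold, and its p stood at place 24 among the 17090 genes tested. *Dtx3l*, an E3 ubiquitin ligase, was at 12.9, 15.6, 12.3 and 12.5 CPM against 23.7, 24.5, 24.0 and 23.6 CPM (log2 fold change 0.85, SE 0.104, adjusted p = 8.92e-05, edgeR), and the *Nae1* cKO nerves were almost level with each other (23.9 ± 0.436 CPM, SD, n = 4). *Parp9*, whose protein forms a complex with DTX3L, was at 13.2, 19.2, 14.9 and 16.9 CPM against 31.0, 29.1, 27.9 and 26.4 CPM (log2 fold change 0.83, SE 0.12, adjusted p = 2.99e-04, edgeR). *Dtx3l* (chr16:35926511-35939151, minus strand) and *Parp9* (chr16:35938470-35972605, plus strand) overlap at their starts, the strand setting of the counting is not given, and both had fractional counts in 7 nerves, so their reads may be shared. *Parp14* (chr16:35832874-35871544, minus strand) overlaps neither of them and had no fractional count.

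Of the other antiviral effectors, 3 of 4 rose. *Bst2*, which encodes tetherin and holds budding virions at the cell surface, was at 9.28, 9.92, 8.03 and 7.39 CPM in control nerves and at 19.9, 13.7, 14.7 and 16.2 CPM in *Nae1* cKO nerves (log2 fold change 0.89, SE 0.148, adjusted p = 8.02e-04, edgeR). *Cmpk2*, a mitochondrial nucleotide kinase, was at 5.92, 5.72, 4.52 and 4.61 CPM against 9.25, 7.73, 8.77 and 8.50 CPM (log2 fold change 0.72, SE 0.146, adjusted p = 3.15e-03, edgeR). Neither gene showed overlap, and K2 was the highest nerve for both. *Isg15*, a ubiquitin-like modifier, was at 2.26, 1.88, 2.51 and 2.54 CPM against 2.39, 3.62, 5.03 and 4.95 CPM (log2 fold change 0.80, SE 0.248, adjusted p = 0.0318, edgeR), with K2 among the control nerves. Its call was lost without K1, L3, L4, L9, L5 or L8 (adjusted p 0.0517 to 0.105, edgeR). *Rsad2*, which encodes viperin and lies next to *Cmpk2* on chromosome 12, was at 0.877, 2.32, 1.87 and 2.86 CPM against 2.01, 1.95, 1.09 and 2.65 CPM (log2 fold change −0.04, SE 0.353, adjusted p = 0.954, edgeR). Its groups overlapped throughout and its sign turned in 9 of the alternatives tried, the TPM and FPKM scales among them.

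The last 4 members were grouped as other induced genes, and 1 of them rose. *Ifi35*, whose protein binds NMI, was at 9.79, 9.63, 10.4 and 10.3 CPM in control nerves and at 16.9, 14, 15.8 and 14.9 CPM in *Nae1* cKO nerves (log2 fold change 0.62, SE 0.109, adjusted p = 1.20e-03, edgeR), without overlap. *Rtp4*, a chaperone of G protein-coupled receptors, was at 0.953 to 1.75 CPM against 1.19, 3.20, 2.86 and 3.0 CPM (log2 fold change 0.80, SE 0.316, adjusted p = 0.0845, edgeR), and only K2 overlapped the control nerves. *Xaf1*, a partner of the apoptosis inhibitor XIAP, was at 11.4 to 12.1 CPM and 11.9 to 16.8 CPM (log2 fold change 0.28, SE 0.124, adjusted p = 0.118, edgeR). *Ifi44* was at 0.73 to 2.53 CPM and 0.522 to 2.65 CPM (log2 fold change −0.17, SE 0.445, adjusted p = 0.82, edgeR), and K2 and K1 were its lowest nerves. Its sign turned without K2 or L3.

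Most genes without a call were of low abundance. The median control level was 8.38 CPM over the 18 genes called higher and 1.94 CPM over the 12 without a call, and 9 of these 12 had a mean under 5 CPM in both groups. Among the 18 genes called higher, 3 had a control mean under 5 CPM. *Stat2* (23.8 ± 2.14 CPM in control nerves, SD, n = 4), *Irf9* and *Xaf1* were the 3 genes without a call above that level. Per gene length, on the deposited TPM scale, the most abundant member in control nerves was *Bst2*, at 8.84 ± 0.81 TPM in control and 17.9 ± 2.21 TPM in *Nae1* cKO nerves (SD, n = 4). *Xaf1* (8.80 TPM), *Parp14* (7.47 ± 1.15 TPM), *Ifit2* (7.30 ± 0.85 TPM) and *Stat2* (6.44 TPM) followed it in control nerves, and each neighbouring pair in this order overlapped over the 4 control nerves. In *Nae1* cKO nerves *Parp14* led with 26.8 ± 8.75 TPM. The lowest members in control nerves were *Oas2* (0.255 TPM), *Mx1* (0.188 TPM) and *Zbp1* (0.0825 TPM). On this scale 13 of the 18 genes called higher had no overlap between the groups. The share of all genes without overlap in TPM was not computed, so this count has no background beside it. It describes genes already called higher and is no test of them.

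Summed per nerve, the 18 genes called higher held 249, 276, 262 and 274 CPM in control nerves and 568, 599, 616 and 587 CPM in *Nae1* cKO nerves, which restates the calls and is no test of them. The 12 genes without a call held 64.0, 73.5, 71.6 and 61.1 CPM against 56.9, 77.8, 78.0 and 83.8 CPM. In that second sum K2 was the lowest of the 8 nerves and the other *Nae1* cKO nerves were the highest 3. Among the 18 genes called higher, K2 was the highest *Nae1* cKO nerve in 7 and the lowest in 5. The whole list held 316 to 352 CPM in control and 627 to 697 CPM in *Nae1* cKO nerves, and without *Parp14* 252 to 278 CPM and 413 to 445 CPM.

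The rest of the interferon route was read from lists of its ligands, receptors, kinases and factors, sensors and brakes. Their counts stand beside the shares of all genes given above, 14.1% higher and 12.3% lower, and on lists this short a few genes make a large share. Interferon transcripts were at or near 0 counts at this depth. Of 21 interferon genes, 17 had 0 counts in all 8 nerves, which allows up to 0.204 to 0.238 CPM per nerve (3 counts, counting error only), and 3 had at most 1 count in any nerve. The exception was *Ifnk*, an interferon of skin keratinocytes, at 1.83, 2.39, 2.22 and 1.19 CPM in control and 0.672, 0.766, 0.884 and 1.12 CPM in *Nae1* cKO nerves (log2 fold change −1.14, adjusted p = 0.0124, edgeR), which stands for at most 33 counts. Of the 5 receptor genes tested, 3 rose by small amounts, with a median log2 fold change of 0.331 over the list. *Ifnar2* went from 28.8 ± 2.0 to 37.4 ± 1.03 CPM (SD, n = 4; adjusted p = 5.32e-03, edgeR), and *Ifnar1* from 103 ± 1.22 to 117 ± 3.08 CPM (SD, n = 4; adjusted p = 0.0472, edgeR). *Il10rb*, shared with the receptor for type III interferons, was the other gene that rose (log2 fold change 0.33, adjusted p = 0.0196, edgeR).

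Among 10 kinases and transcription factors of the route that are not in the list of 33, 6 rose and 1 fell, with a median log2 fold change of 0.369. *Jak1* went from 112 ± 6.90 to 153 ± 5.76 CPM, and the kinase that pairs with it at the type I receptor, *Tyk2*, from 39.3 ± 2.31 to 30.8 ± 1.37 CPM (SD, n = 4; adjusted p = 5.82e-04 and 7.43e-03, edgeR). *Irf1*, the factor induced most directly by interferon gamma, rose from 15.1 ± 1.06 to 21.4 ± 2.91 CPM (SD, n = 4; adjusted p = 6.91e-03, edgeR). *Stat3* rose as well (log2 fold change 0.54, adjusted p = 1.29e-03, edgeR).

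Of 13 genes for nucleic acid sensing upstream of interferon, 7 rose (median log2 fold change 0.315). They included *Tlr3*, the endosomal sensor of double-stranded RNA (log2 fold change 0.62, adjusted p = 2.74e-03, edgeR), and *Aim2*, a cytosolic DNA sensor (1.06, adjusted p = 0.0101, edgeR). *Tmem173*, which encodes STING, and *Mb21d1*, which encodes the DNA sensor cGAS, rose by 0.64 and 0.98 on the log2 scale (adjusted p = 0.0180 and 0.0218, edgeR). Of 13 negative regulators tested, 3 rose and 1 fell (median log2 fold change 0.206), shares near those of all genes. *Ptpn6*, the phosphatase SHP-1 of blood-derived cells, went from 3.95 ± 0.603 to 8.0 ± 0.499 CPM (SD, n = 4; adjusted p = 3.97e-04, edgeR). Subunits of RNase H2, an enzyme that removes RNA from DNA, went in both directions in CPM. *Rnaseh2b* and *Rnaseh2a* rose by 0.66 and 0.57 and *Rnaseh2c* fell by 0.57 on the log2 scale (adjusted p = 4.75e-04, 1.78e-03 and 0.0202, edgeR). Expected counts were fractional in 8 nerves for *Rnaseh2c* and in 3 for *Rnaseh2a*, so their values are uncertain to that extent. In TPM the groups of *Rnaseh2c* overlapped, at 28.5 ± 4.44 in control and 24.7 ± 9.66 in *Nae1* cKO nerves (SD, n = 4). Of the 4 enzymes that attach ISG15 to proteins, 3 rose, *Trim25*, *Herc6* (log2 fold change 0.63, adjusted p = 3.81e-03, edgeR) and *Ube2l6* (0.51, adjusted p = 0.0303, edgeR). *Uba7*, which encodes the activating enzyme of ISG15 and is thus the counterpart of NAE1 for that modifier, was at 9.94 ± 1.56 and 10.6 ± 1.45 CPM (SD, n = 4; log2 fold change 0.09, adjusted p = 0.708, edgeR).

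A wider list held 65 further interferon-stimulated genes. Of 51 tested, 16 rose and 1 fell, and the median log2 fold change was 0.291. *Eif2ak2*, the kinase PKR, rose from 19.3 ± 1.03 to 31.1 ± 2.35 CPM, and *Ifitm3*, which blocks virus entry, from 11.9 ± 2.12 to 23.5 ± 2.32 CPM (SD, n = 4; adjusted p = 1.85e-04 and 2.24e-04, edgeR). *Parp10*, another ADP-ribosyltransferase, and *Trim21*, an antibody receptor of the cytosol, rose by 0.95 and 0.84 on the log2 scale (adjusted p = 3.44e-04 and 5.54e-04, edgeR). The gene that fell, named after its values were seen, was *Cxcl11*, an interferon-induced chemokine, at 5.33, 3.19, 4.88 and 5.32 CPM in control nerves and 2.24, 2.16, 2.18 and 2.16 CPM in *Nae1* cKO nerves (log2 fold change −1.10, adjusted p = 1.63e-03, edgeR).

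**Figure D3:**
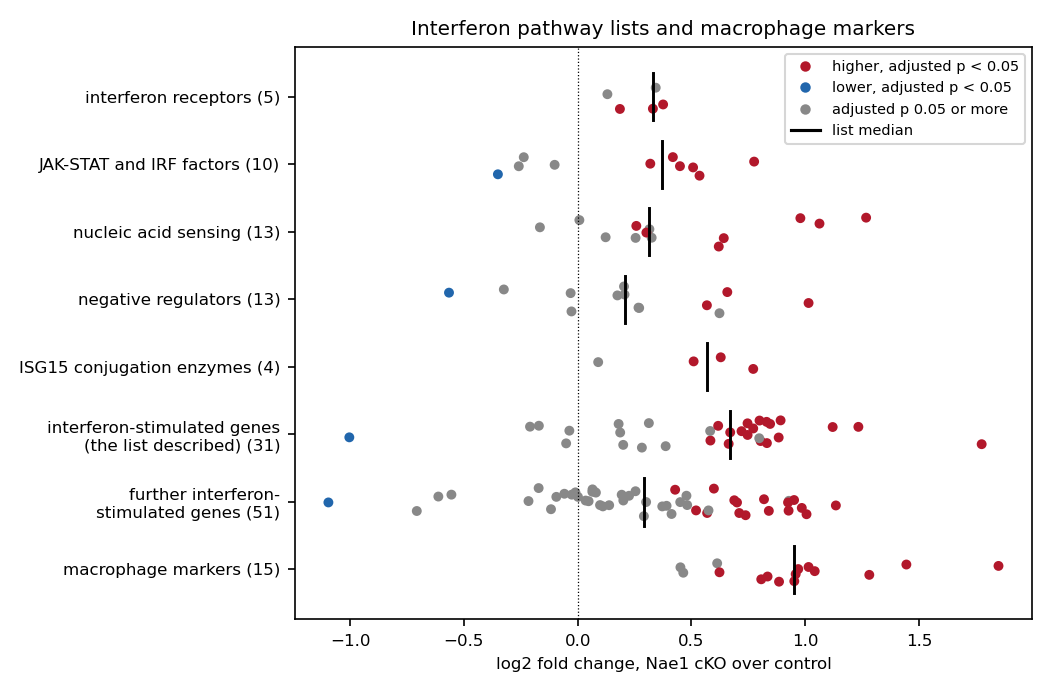
Log2 fold change (horizontal axis, *Nae1* cKO over control) of each tested gene of 6 interferon lists, the 31 members and 15 macrophage markers, 1 point per gene with the number tested in brackets and the list median as a bar. Medians run from 0.206 for the negative regulators to 0.67 for the members and 0.952 for the macrophage markers, and *Trim25* appears in 2 lists.

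Markers of macrophages, which can express interferon-stimulated genes, were higher in *Nae1* cKO nerves. Of 15 markers 12 rose, with a median log2 fold change of 0.952, and all of these but *Laptm5*, whose K2 value lay among the control nerves, were without overlap between the groups. *Ctss*, a lysosomal protease, went from 12.5 ± 0.232 to 45.1 ± 5.61 CPM, and *Csf1r*, the receptor that sustains macrophages, from 60.2 ± 6.04 to 107 ± 4.34 CPM (SD, n = 4; adjusted p = 2.66e-07 and 1.93e-05, edgeR). The summed macrophage markers held 286, 273, 292 and 293 CPM in control nerves and 612, 502, 518 and 500 CPM in *Nae1* cKO nerves. K2 was the highest nerve in this sum, but single markers, named after their values were seen, ranked it differently. For *Mrc1* K2 was at 130 CPM and the other *Nae1* cKO nerves at 72.6 to 82.6 CPM. For *Cx3cr1* K2 was at 52.7 CPM and the others at 66.7 to 70 CPM, so the order in the sum is not that of each marker. K2 was the lowest *Nae1* cKO nerve in the sum of the members (627 CPM), but not without *Parp14*, where it held 420 CPM and L1 413 CPM. The part of the macrophages in the rise of the members was not tested.

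**Figure D4:**
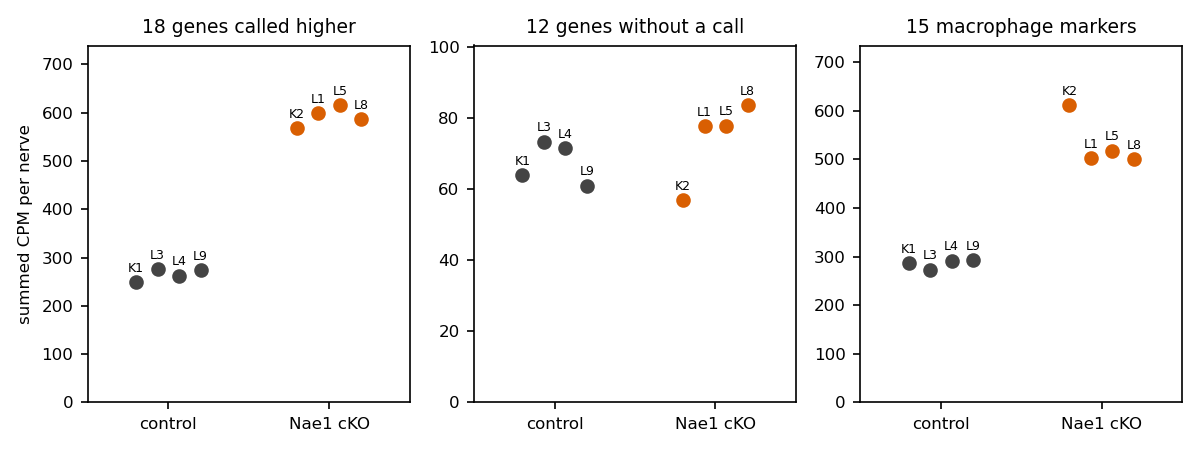
Summed level in CPM (vertical axes start at 0) per nerve of the 18 genes called higher, the 12 genes without a call and 15 macrophage markers, 1 point per nerve labelled with its name. *Nae1* cKO nerves lie at 568 to 616 CPM against 249 to 276 CPM in the first panel and at 500 to 612 CPM against 273 to 293 CPM in the last, while K2 is the lowest nerve of the middle panel.

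Markers of lymphocytes were low, and several were near 0. *Cd3d*, *Cd3e* and *Cd3g* of T cells, *Ms4a1* of B cells, and *Ncr1* of NK cells had at most 2 counts in any nerve. Higher counts were found for *Cd8a* (2 to 6), *Cd4* (4 to 15) and *Cd79b* (6 to 15). The tested gene of the T and NK cell list was *Klrb1c* (log2 fold change 2.29, adjusted p = 1.76e-03, edgeR), with 2 to 29 counts, and its list summed to 0.795 to 1.65 CPM in control and 1.64 to 2.93 CPM in *Nae1* cKO nerves. Of 6 markers of plasmacytoid dendritic cells, the main producers of interferon alpha, *Siglech*, which microglia-like macrophages also express, rose (log2 fold change 2.11, adjusted p = 3.03e-04, edgeR; at most 27 counts), and *Ccr9* fell (log2 fold change −0.74, adjusted p = 0.0388, edgeR). Of the B cell list only *Cd79b* was tested (adjusted p = 0.659, edgeR), and of 3 tested markers of neutrophils and mast cells *Mcpt4* had the smallest adjusted p (0.0713, edgeR).

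Some markers of other cell types of the nerve also differed between the genotypes. Schwann cell lineage markers, which show that the samples were nerve, summed to 13900 to 23300 CPM in control and 5930 to 6900 CPM in *Nae1* cKO nerves, where 4 of 9 fell and *Cdh19* rose. Of 7 fibroblast markers 4 rose and 3 had no call, and of 8 endothelial markers 3 fell and 5 had no call. Of 6 genes of cycling cells 5 rose. These counts stand beside 14.1% of all genes higher and 12.3% lower, and on lists this short a few genes make a large share. Skeletal muscle genes, a sign of tissue beside the nerve, summed to 55.3 to 686 CPM in control and 20.6 to 56.5 CPM in *Nae1* cKO nerves. With the control nerves K1 and L4 left out, 13 of 31 members were higher, all among the 18, beside 7.17% of all genes. The part of any of these cell types in the levels of the members was not tested.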

How the data were processed

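Total RNA of P7 sciatic nerves, depleted of ribosomal RNA, had been sequenced from stranded libraries, and each of the 8 samples was taken as a mouse. The authors deposited for each nerve a gene table from RSEM with expected counts (estimated, unscaled and not always whole), TPM and FPKM. FastQC 0.11.5, STAR and RSEM with GRCm38 are the tools and build in the submitters' processing notes, whereas the methods of the study name TopHat on mm10 and Cuffdiff, which needs aligned reads and was not repeated. Neither the annotation release nor the strand setting is given in the sources used here. Expected counts were rounded, filtered with edgeR's filterByExpr (17090 genes left), scaled by TMM and compared over all 8 nerves by edgeR's quasi-likelihood test (robust, no covariate), with Benjamini-Hochberg adjustment over all genes (R 4.3.3, edgeR 4.0.16, limma 3.58.1, DESeq2 1.42.0). The script was tested on simulated counts. The common biological coefficient of variation was 0.158, and depth was 12962798 to 14766770 expected counts per nerve. Fold changes use CPM after TMM scaling, since the deposited TPM carry no such scaling between nerves.

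The members, the other lists and the tests were chosen with earlier results of these data known. Every member is accounted for, up to 4 genes of each other list with the smallest adjusted p are named, and others are named as chosen after their values were seen or as markers that define a cell type. Coordinates come from GENCODE vM21 (GRCm38), which 52489 gene identifiers matched without their version. Promoter sequences come from RefSeq (GRCm38.p6), 250 bases upstream of each start, for 24 of 33 members. In 18 of their 27 windows the 50 bases after the start also lay in a GENCODE transcript. Members that overlap another gene, such as *Irf9* with *Rnf31* and *Rtp4* with *Masp1*, are uncertain to that extent. Alternatives were limma-voom, DESeq2 and its size factors in edgeR, library totals, no filter on low counts, at least 10 counts in every nerve, limma on log2(TPM + 1), log2(TPM + 0.1) and log2(FPKM + 1), the letter K or L of each nerve as a term, the nerves of letter L alone, and each nerve left out. Leaving out K1 and L4, the control nerves with the most skeletal muscle RNA, was added after seeing the data. Some items are not reported here.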

Additional observations from a re-analysis of the deposited data

Results flagged for a closer look

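In each group of 4 nerves the gap of the highest or lowest nerve to its neighbour was set against the whole range (Dixon's rule, critical value 0.829). Over 62 groups, 2 for each of the 31 genes, 4 passed it, and chance gives about 1 in 20. Among *Nae1* cKO nerves, *Irf9* was at 13 CPM in K2 and at 19.0 to 19.5 CPM elsewhere. *Irf7* was at 1.59 CPM in the control nerve L9, against 1.94 to 1.97 CPM. *Gbp3* was at 8.98 CPM in the control nerve L9, against 7.6 to 7.82 CPM. *Dtx3l* was at 15.6 CPM in the control nerve L3, against 12.3 to 12.9 CPM. The *Gbp3* and *Dtx3l* nerves still lay below all *Nae1* cKO nerves.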

How the results depend on the processing

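Over 20 alternatives, 11 of the 18 genes called higher kept their call in each alternative that gave them a value, namely *Trim25*, *Ifit2*, *Gbp2*, *Gbp3*, *Gbp7*, *Irgm1*, *Parp9*, *Dtx3l*, *Parp14*, *Cmpk2* and *Bst2*, and no called gene changed sign. Members higher are given here with the share of all genes called higher in brackets, which was 14.1% in the main test. There were 17 with DESeq2 (14.4%), 17 with limma-voom (13.9%), 18 with DESeq2 size factors (13.6%) and 21 with library totals (22.7%). Without a filter 17 of 33 tested were higher (7.43%), and with at least 10 counts in every nerve 18 of 27 (15.1%). Counts were 12 on log2(TPM + 1) (7.59%), 12 on log2(TPM + 0.1) (7.28%) and 20 on log2(FPKM + 1) (19.7%). With the letter as a term 19 were higher (16.4%), and within the letter L 18 (14%). Single nerves left out gave 14 (without L5, 11.2%) to 20 (without K2, 15.7%), and leaving out K1 and L4 gave 13 (7.17%). The member called lower, *Oas2*, was lost (0 lower) with DESeq2, limma-voom, library totals, no filter, the limit of 10 counts (which removed it), TPM, FPKM, the letter L alone and without K1 and L4, and the number lower was 0 to 1 with single nerves left out, with 1 kept only without L9. Its adjusted p reached 0.578. *Ddx58* and *Ifi35* lost their call on both TPM scales only (highest adjusted p 0.104 and 0.0538, limma), *Ifit3* only without K1 and L4 (0.0742, edgeR), and *Ifih1*, *Igtp*, *Isg15* and *Ifit1* in 6, 7, 10 and 12 alternatives. *Oasl2*, *Rtp4*, *Xaf1* and *Irf9* gained a call in 5, 3, 2 and 1. The median log2 fold change moved from 0.67 to 0.817 with library totals, 0.754 with at least 10 counts and 0.841 on log2(TPM + 0.1), and lay at 0.627 to 0.712 with single nerves left out. Library totals moved the median of all genes from 0.0066 to 0.163, log2(TPM + 1) to 0.101, log2(TPM + 0.1) to 0.132 and log2(FPKM + 1) to 0.128, and the share of higher among all calls from 53.5% to 75.5%, 75.4%, 75.0% and 76.4%. The sign turned only in genes without a call. *Dhx58* went from 0.20 to −0.032 on log2(TPM + 1), −0.076 on log2(TPM + 0.1) and −0.028 on log2(FPKM + 1). *Mx2* went from −0.05 to 0.0012 with limma-voom, 0.10 with library totals, and 0.12, 0.29 and 0.13 on the same 3 scales, and *Rsad2* from −0.04 to 0.017, 0.12, 0.17, 0.46 and 0.24 in the same order and to 0.0058 with the letter as a term. With single nerves left out, *Dhx58* ran from −0.083 to 0.34, *Oas1a* from −0.023 to 0.41, *Mx2* from −0.21 to 0.24, *Rsad2* from −0.29 to 0.19 and *Ifi44* from −0.48 to 0.11. The causes were not tested. Genes under 5 CPM rest on few counts, which limits what can be called for the OAS and MX families. No paired analysis was possible because the groups share no replicate number.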
